A study of Mus musculus with 4 samples.

Results

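The transcripts of 8 enzymes that make or exchange nonessential amino acids were examined in mouse medulloblastoma cells: Asns, Got1, Got2, Gpt2, Pycr1, Aldh18a1, Cth and Cbs. They were taken by name from a table of 55573 genes, and each of the 8 matched 1 Ensembl gene. The choice was made with earlier results of these data known. After treatment with a Smoothened inhibitor 6 of the 8 fell, by 1.90-fold to 3.66-fold, and none rose. The mitochondrial aspartate aminotransferase gene Got2 and the cystathionine beta-synthase gene Cbs did not pass the test.

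RNA was sequenced from SmoWT cells, which the labels describe as Sonic Hedgehog subtype medulloblastoma cells on a C57BL/6 background with the genotype Ptch1+/-, Trp53-/-. They came from spontaneous tumours, and all were grown as neurospheres in Neurobasal medium with B27. The labels give the DMSO controls and the treated cells the same genotype. The DMSO group (2 libraries) received solvent for 24 h, and the GDC0449 group (2 libraries) received 0.1 µM GDC0449, also called vismodegib, for 24 h. Whether the replicates were separate cultures or came from 1 tumour is not given in the sources used here, so p-values measure only the spread between these libraries, which may be technical.

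Glutamate takes part in several of the pathways of these enzymes. Asparagine synthetase (Asns) moves nitrogen from glutamine onto aspartate, and the transaminases encoded by Got1, Got2 and Gpt2 pass amino groups between glutamate, aspartate and alanine. Aldh18a1 turns glutamate into pyrroline carboxylate and Pycr1 reduces that to proline, while Cbs and then Cth turn homocysteine into cysteine by transsulfuration. Several of these genes, Asns most prominently, are known targets of ATF4, the transcription factor of the integrated stress response, which binds composite C/EBP-ATF response elements.

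The promoter windows of 3 of the genes that fell are shown because they hold the letters TGATGNAA (N, any base), the core of such an element, on one of the 2 strands. Each window runs from 250 bases before to 50 bases after the RefSeq start site (GRCm38.p6), 5′ to 3′ on the gene's strand, and capitals mark the match. The Asns window is chr6:7693160-7693459, that of Got1 is chr19:43524556-43524855 and that of Pycr1 is chr11:120643699-120643998, each on the minus strand.
Asns: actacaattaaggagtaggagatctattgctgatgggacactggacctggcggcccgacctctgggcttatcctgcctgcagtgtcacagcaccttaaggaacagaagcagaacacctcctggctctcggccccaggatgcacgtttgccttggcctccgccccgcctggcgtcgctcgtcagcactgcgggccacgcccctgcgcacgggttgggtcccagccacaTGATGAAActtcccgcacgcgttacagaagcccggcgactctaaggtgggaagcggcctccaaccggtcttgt
Got1: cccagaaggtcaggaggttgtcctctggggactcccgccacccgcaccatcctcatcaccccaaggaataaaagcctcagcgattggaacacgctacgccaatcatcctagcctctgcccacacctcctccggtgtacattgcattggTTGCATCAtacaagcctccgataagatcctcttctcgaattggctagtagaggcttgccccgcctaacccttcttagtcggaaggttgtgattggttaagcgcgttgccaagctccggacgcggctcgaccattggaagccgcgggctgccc
Pycr1: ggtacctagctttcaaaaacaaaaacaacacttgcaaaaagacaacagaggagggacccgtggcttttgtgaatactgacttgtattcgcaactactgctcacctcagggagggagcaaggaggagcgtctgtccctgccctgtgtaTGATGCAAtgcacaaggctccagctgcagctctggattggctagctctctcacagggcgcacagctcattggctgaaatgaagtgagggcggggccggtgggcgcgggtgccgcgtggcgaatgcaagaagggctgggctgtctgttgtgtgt

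Counted from the start site, the match lay at -23 to -16 in Asns, at -102 to -95 in Got1 and at -103 to -96 in Pycr1. In Got1 it stands on the opposite strand, as TTGCATCA. RefSeq windows were at hand for 7 of the 8 genes, and 3 of the 7 held a match. Of all 32851 windows of the same length 1304 did, or 3.97%. Gpt2 and Aldh18a1 fell as well and had no match in their windows, nor had Got2 and Cbs. Cth had no window in the table. A match of letters alone does not show binding, and any part of ATF4 in the falls was not tested.

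Reads in genes numbered 16329721 to 20790030 per library, and the 8 enzyme genes together received 16838 to 32945 of them. Reads in no gene made up 12.3% and 13.2% in DMSO and 14.3% and 14.4% in GDC0449; the part of this in the results was not tested. Gli1, the Hedgehog target that reports pathway activity, averaged 272 ± 12.9 CPM in the controls against 35.8 ± 4.29 CPM after treatment (SD, n = 2; edgeR adjusted p = 1.58e-36). CPM here are counts relative to each library's TMM-scaled total, so they do not sum to the same value in each library. Over all tested genes they summed to 1023000 and 1013000 CPM in DMSO and to 985000 and 980100 CPM in GDC0449. Of 10 granule neuron lineage markers 9 were tested. By the thresholds given below 6 were called higher (66.7%, beside 8.68% of all tested genes). Pax6 went the other way, at a log2 fold change of -0.19 (edgeR adjusted p = 0.0450), and was not called. The 10 markers summed to 1557 to 1601 CPM in DMSO and 2524 to 2527 CPM in GDC0449. Barhl1 was near 0, at 0.379 CPM in DMSO. Summed markers of astrocytes (6 genes) were at 82.8 to 86.7 CPM in DMSO and 86.7 to 91.5 CPM in GDC0449, with Aqp4 and Aldh1l1 at 0 reads. Slc1a3 made up most of that sum, and of 4 tested astrocyte markers Aldoc rose, from 7.07 ± 1.30 to 14.8 ± 1.66 CPM (edgeR adjusted p = 3.14e-08; 0.0579 without DMSO replicate 2). Those of the oligodendrocyte lineage (6 genes) were at 63.2 to 63.3 and 79.0 CPM, with Olig1 at 0. Of the remaining lists 1 gene, Pecam1, rose and 1, Pdgfrb, fell, both endothelial or mural markers that averaged at most 1.32 CPM in either group. Both calls were lost without DMSO replicate 1 (adjusted p = 0.292 and 0.0745) and without DMSO replicate 2 (0.108 and 0.194), that of Pecam1 also without GDC0449 replicate 2 (0.208) and that of Pdgfrb without GDC0449 replicate 1 (0.134). Microglial markers (5 genes) summed to at most 1.12 CPM, endothelial and mural markers (4 genes, Cdh5 and Kdr at 0) to at most 1.93 CPM and fibroblast markers (4 genes, Lum at 0) to at most 1.33 CPM. A count of 0 in 77944561 reads allows up to 0.0385 CPM. Within these bulk samples, fewer cells of a type and less RNA per cell cannot be told apart. The part of the change in lineage markers in the results below was not tested.

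Taken as a group, the enzyme genes were lower after 24 h of GDC0449. A gene was called when its edgeR adjusted p was below 0.05 and its fold change over 1.5 in either direction. Of 15472 genes tested 12.5% were called, 3.85% lower and 8.68% higher. Among the 8 enzyme genes, all of which were tested, 6 were called lower and 0 higher, as also with DESeq2 and limma-voom. The 8 were chosen with earlier results of these data known. Their share beside that of all genes is therefore no independent test of the group. With adjusted p alone 6 passed, all lower, where 36.1% of all tested genes did (18.1% higher and 18.1% lower); at an unadjusted p under 0.05, which 44.1% of all genes met, Got2 was lower as well. The median log2 fold change of the 8 was -1.16, against 0.01 over all tested genes. The levels of the 8 summed to 1677 and 1610 CPM in the controls, compared with 799 and 809 CPM after treatment. Asns alone made up 32.5% to 36.0% of that sum in each library. The groups did not overlap in 7 of the 8 genes, as was the case in 65.8% of all tested genes.

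**Figure D1:**
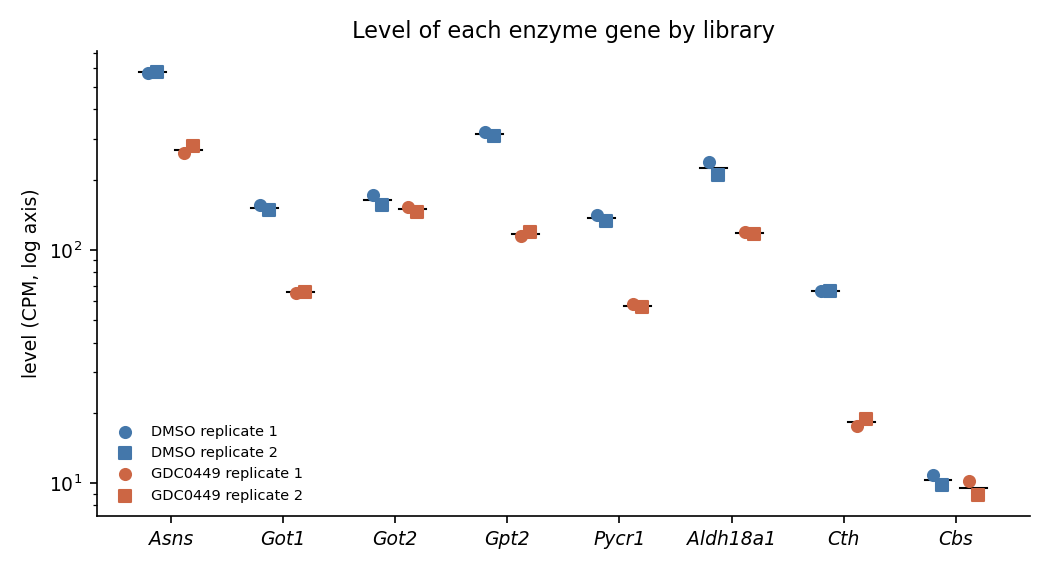
Level of each enzyme gene in CPM on a log axis, with 1 point per library (circles replicate 1, squares replicate 2) and a bar at the mean of each group. The points of Asns, Got1, Gpt2, Pycr1, Aldh18a1 and Cth lie lower in GDC0449, those of Got2 lie close together and those of Cbs overlap.

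Asns (ENSMUSG00000029752, chromosome 6, 7675169 to 7693254, minus strand), whose product is the only enzyme known to make asparagine in mammals, was the most abundant of the 8. The controls had 575 and 580 CPM, the treated libraries 260 and 278 CPM. Both treated libraries lay far below both controls, and the replicates of each group lay close together. This was a 2.15-fold fall (log2 fold change -1.10, SE 0.06, edgeR adjusted p = 4.13e-22). It ranked 287 from the lowest among 15472 log2 fold changes. The deposited FPKM values, which are per length of gene, were 189 and 193 in the controls, against 85.7 and 93.9 after treatment.

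The 3 transaminase genes divided: the genes of the cytosolic aspartate and the mitochondrial alanine enzyme fell, and that of the mitochondrial aspartate enzyme did not pass. Gpt2 (ENSMUSG00000031700, chromosome 8, 85492576 to 85527560), which encodes mitochondrial alanine aminotransferase, was at 319 and 306 CPM in DMSO and at 115 and 119 CPM in GDC0449. The fall was 2.67-fold (log2 fold change -1.42, SE 0.06, edgeR adjusted p = 9.35e-26), and the groups were widely apart.

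Got1 (ENSMUSG00000025190, chromosome 19, 43499752 to 43524605), the cytosolic aspartate aminotransferase gene, was at 155 and 149 CPM in DMSO and at 65.1 and 66.1 CPM in GDC0449. It fell 2.31-fold (log2 fold change -1.21, SE 0.07, edgeR adjusted p = 2.21e-21). Its mitochondrial counterpart Got2 (ENSMUSG00000031672, chromosome 8, 95864134 to 95888547) was at 172 and 156 CPM in DMSO and at 153 and 145 CPM in GDC0449. The lower control and the higher treated library of Got2 nearly touched. Its log2 fold change was -0.14 (95% interval -0.27 to -0.01, edgeR adjusted p = 0.0873), so a change as large as that of Got1 lay outside the interval. The 2 enzymes work on the same reaction on either side of the inner mitochondrial membrane, as arms of the malate-aspartate shuttle. A predicted gene on the other strand shares 8.997% of the exonic bases of Got2, and the strand setting of the counting is not given.

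The ratio of Got2 to Got1 reads per kilobase of annotated exon was 0.586 and 0.553 in the controls and 1.24 and 1.16 in the treated libraries. In the deposited FPKM the same ratio was 1.32 and 1.31 in the controls and 2.79 and 2.77 after treatment. On both scales both treated libraries lay above both controls, but which of the 2 genes stood higher in the controls depended on the scale. With 2 libraries against 2, the exact two-sided permutation test of a ratio cannot go below p = 0.333, the value it gave for each of 9 ratios computed (0.333 also after Benjamini-Hochberg adjustment).

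Both proline synthesis genes fell. Pycr1 (ENSMUSG00000025140, chromosome 11, 120635712 to 120643769), the mitochondrial reductase of the last step, was at 141 and 133 CPM in DMSO and at 58.7 and 56.5 CPM in GDC0449. That is a 2.37-fold fall (log2 fold change -1.25, SE 0.07, edgeR adjusted p = 1.96e-21). Aldh18a1 (ENSMUSG00000025007, chromosome 19, 40550257 to 40588463), which encodes the enzyme that commits glutamate to proline and ornithine, was at 238 and 210 CPM in DMSO and at 119 and 116 CPM in GDC0449. Its controls were the more scattered pair, but both stood well above the treated libraries. The fall of 1.90-fold (log2 fold change -0.93, SE 0.07, edgeR adjusted p = 2.25e-17) was the smallest of the 6.

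The cytosolic reductase gene Pycrl, now named Pycr3, differed less than Pycr1 and was not called. It had 43.5 ± 2.89 CPM in the controls against 38.4 ± 2.65 CPM after treatment, a log2 fold change of -0.18 (edgeR adjusted p = 0.0906). Pycr1 had 1.05 and 1.09 times the reads per kilobase of Pycrl in the controls, and 0.496 and 0.527 times after treatment. In FPKM the ratio was 2.32 and 2.27 in the controls, and 1.09 and 1.06 after treatment. The ratio was lower after treatment on both scales, while the order of the pair depended on the scale.

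**Figure D2:**
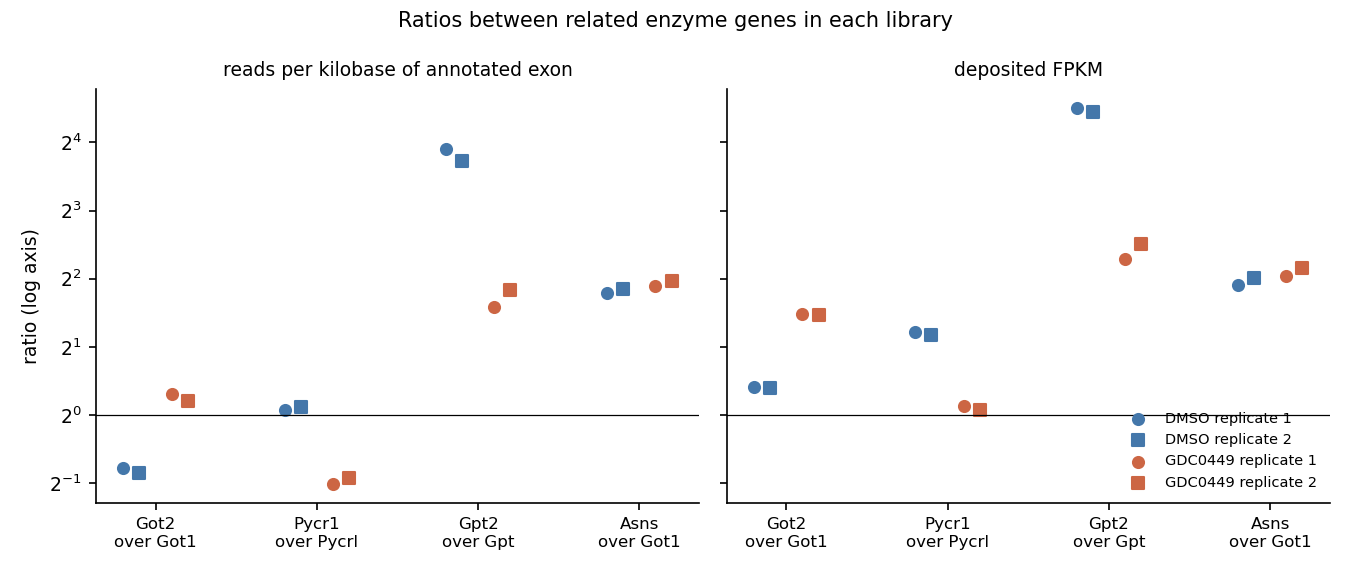
Ratios between related genes in each library on a log axis, from reads per kilobase of annotated exon (left) and from the deposited FPKM (right), with 1 point per library (circles replicate 1, squares replicate 2). On both scales Got2 over Got1 is higher in GDC0449 and Pycr1 over Pycrl and Gpt2 over Gpt are lower, while Asns over Got1 differs little. Got2 over Got1 lies below 1 in DMSO on the left and above 1 on the right.

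Of the transsulfuration pair, the second enzyme's gene fell most of all 8 and the first did not pass. Cth (ENSMUSG00000028179, chromosome 3, 157894248 to 157925077), cystathionine gamma-lyase, was at 66.4 and 66.8 CPM in DMSO and at 17.6 and 18.8 CPM in GDC0449. The replicates of each group were close and the groups far apart. It fell 3.66-fold (log2 fold change -1.87, SE 0.09, edgeR adjusted p = 6.63e-25) and ranked 98 from the lowest of 15472. The ratio of Cth to Asns reads per kilobase was 0.113 in both DMSO libraries and 0.0662 or 0.0663 in the GDC0449 libraries.

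Cbs (ENSMUSG00000024039, chromosome 17, 31608894 to 31637238), which joins homocysteine to serine, was the scarcest, at 10.8 and 9.75 CPM in the controls against 10.2 and 8.91 CPM after treatment. The groups overlapped. Its counts were 157 to 214 reads per library, and its log2 fold change of -0.12 had a 95% interval of -0.40 to 0.17 (edgeR adjusted p = 0.563). Cth therefore had 16.4 and 18.4 times the reads per kilobase of Cbs in DMSO and 4.64 and 5.66 times in GDC0449. In FPKM the ratio was 9.89 and 14.7 in DMSO, and 3.44 and 3.57 in GDC0449, so its size depended on the scale.

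Levels can be ordered between genes only per length. In CPM per kilobase of annotated exon, Asns stood far above the rest in DMSO, at 211 ± 1.16. Got1 at 59.8 ± 1.77, Gpt2 at 55.4 ± 1.55 and Aldh18a1 at 55.0 ± 4.82 followed, and Aldh18a1 did not differ from either of the others beyond its spread. Pycr1 at 34.7 ± 1.43 and Got2 at 34.1 ± 2.40 did not either. Cth at 23.9 ± 0.0962 and Cbs at 1.38 ± 0.103 were last (SD, n = 2). After GDC0449 the order was Asns at 98.3 ± 4.82, Got2 at 30.9 ± 1.17, Aldh18a1 at 29.0 ± 0.519, Got1 at 25.8 ± 0.268, Gpt2 at 20.7 ± 0.475, Pycr1 at 14.6 ± 0.396, Cth at 6.52 ± 0.319 and Cbs at 1.27 ± 0.118 CPM per kilobase (SD, n = 2). On this scale Got2 stood sixth in DMSO and second in GDC0449, whereas in the deposited FPKM it stood second in both groups.

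The calls of the 6 genes did not rest on 1 library. Leaving out each library in turn, log2 fold changes lay between -1.16 and -1.05 for Asns, -1.45 and -1.39 for Gpt2, and -1.25 and -1.18 for Got1. They lay between -1.29 and -1.21 for Pycr1, -1.02 and -0.84 for Aldh18a1, and -1.93 and -1.82 for Cth. In each of these fits all 6 were called with edgeR, and Got2 and Cbs were not.

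Of the other listed enzymes of the same pathways, 4 were called. Of 52 genes listed for asparagine and aspartate, proline and ornithine, glutamate with glutamine and alanine, and cysteine and methionine, 43 were tested, 3 rose and 1 fell. That is 9.30% of those tested, near the 12.5% called over all genes, and so is no result about these genes as a group. Their median log2 fold change was -0.04, and at adjusted p alone 17 of 43 passed, 7 higher and 10 lower, or 39.5% beside 36.1% of all tested genes. The levels of the 52 summed to 5188 and 5240 CPM in DMSO and 5070 and 5102 CPM in GDC0449.

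**Figure D3:**
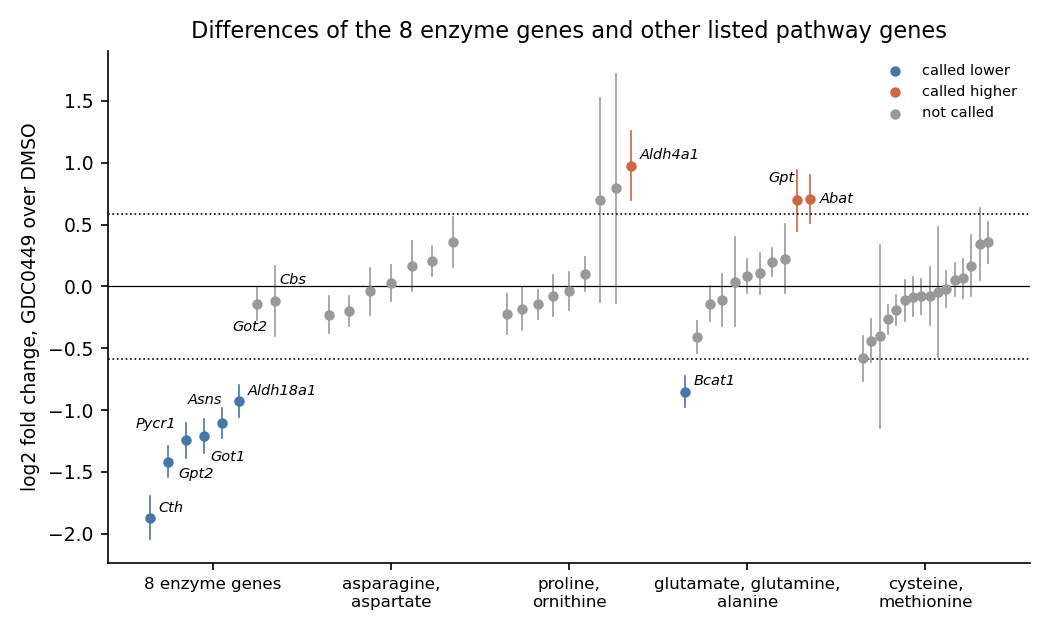
Log2 fold change of GDC0449 over DMSO for the 8 enzyme genes and the tested genes of 4 other lists, sorted within each list, with edgeR 95% intervals. Dotted lines mark the 1.5-fold threshold. Of the 8 genes 6 lie below it, while most other genes lie between the lines.

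Among the 7 tested genes of the asparagine and aspartate list 0 passed both thresholds with edgeR, with DESeq2 or with limma-voom. Still, 4 passed the adjusted p alone and the same number had an unadjusted p under 0.05 (57.1%, beside 36.1% and 44.1% of all genes). The gene of this list with the highest mean CPM was Mdh2, which encodes mitochondrial malate dehydrogenase. It had 420 ± 28.5 CPM in the controls against 366 ± 16.6 CPM after treatment (log2 fold change -0.20). Of 9 tested proline and ornithine genes 1 was called (11.1%, beside 12.5% of all tested genes). The gene that rose was Aldh4a1, which oxidises pyrroline carboxylate back to glutamate and so runs against Aldh18a1. It went from 7.90 ± 0.278 to 15.6 ± 2.13 CPM (1.97-fold, edgeR adjusted p = 6.23e-08). Its call was lost without DMSO replicate 1 (adjusted p = 0.0523) and without DMSO replicate 2 (0.0622), and 32.5% of its exonic bases are shared with other annotated genes. The ornithine decarboxylase gene Odc1 was at 483 ± 0.0558 and 437 ± 6.58 CPM and was not called.

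Of 11 tested genes of glutamate, glutamine and alanine 2 rose and 1 fell (27.3% called, beside 12.5% of all tested genes). At adjusted p alone 5 passed, or 45.5% beside 36.1%. Bcat1, a cytosolic branched-chain transaminase that makes glutamate, fell 1.80-fold, from 262 ± 4.03 to 145 ± 2.49 CPM (edgeR adjusted p = 6.34e-17). Gpt, the cytosolic alanine aminotransferase gene, rose from 11.5 ± 0.708 to 18.7 ± 1.93 CPM (1.62-fold, edgeR adjusted p = 6.15e-06), opposite to its mitochondrial paralog Gpt2. Gpt2 had 15.04 and 13.25 times the reads per kilobase of Gpt in the controls, and 2.995 and 3.581 times after treatment. In FPKM the ratio was 22.75 and 21.83 in the controls, and 4.874 and 5.699 after treatment. The call of Gpt was lost without DMSO replicate 1 (adjusted p = 0.0769) and without DMSO replicate 2 (0.0622). Abat, which breaks down GABA, rose from 20.8 ± 1.48 to 34.0 ± 1.37 CPM (1.63-fold, edgeR adjusted p = 2.87e-08). Glul, glutamine synthetase, was the most abundant gene of the list, at 1491 ± 37.8 and 1707 ± 2.42 CPM, and its log2 fold change of 0.20 was under the fold threshold.

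In the cysteine and methionine list 0 of 16 tested genes were called with edgeR or limma-voom and 1 with DESeq2. At adjusted p alone 5 passed (31.2%, beside 36.1% of all genes), and 6 had an unadjusted p under 0.05 (37.5%, beside 44.1%). Mat2a, which makes S-adenosylmethionine and had the highest level there, had 430 ± 7.06 CPM in the controls against 358 ± 6.23 CPM after treatment (log2 fold change -0.27). Mtrr, the reductase that reactivates methionine synthase, was named after its value was seen because it lay just short of the fold threshold, at a log2 fold change of -0.58. It was the gene that passed with DESeq2, at -0.59. Mtrr was also called lower with relative log expression scaling, without a filter and on log2(FPKM + 0.1). With upper-quartile scaling, the filter at 5 CPM and log2(FPKM + 1) it was not called.

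The genes whose pattern over the 4 libraries was nearest to that of Asns were found by the distance between log2 CPM values centred on each gene's mean, among 10155 named genes that averaged 5 CPM or more. The nearest 5 were Pla2g12a at a distance of 0.02, Gars at 0.04, Fam43a at 0.05, Ghitm at 0.05 and Cltb at 0.05 log2 units. Pla2g12a had 61.3 and 60.5 CPM in the controls against 27.4 and 29.3 CPM after treatment. Among the enzyme genes Got1 was nearest to Asns, at a distance of 0.13 and place 23, followed by Pycr1 at 0.19, Aldh18a1 at 0.25, Gpt2 at 0.32 and Cth at 0.76. Got2 at 0.98 and Cbs at 1.02 were farthest. With 2 groups of 2 libraries, such a distance mostly measures how alike the differences between the groups are.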

How the data were processed

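RNA-seq of 4 libraries was analysed, 2 from cells given DMSO and 2 from cells given GDC0449. Per the submitters' processing notes, the authors trimmed reads with Trim Galore, mapped them to mm10 with HISAT2 and counted reads per gene with HTSeq 0.11.1; the notes also name DESeq2 1.26.0. The deposited counts are raw. The deposited FPKM values were computed by the authors from reads, gene length and depth, with a tool not given in the sources used here; 546 genes have 0 counts in all 4 libraries and an FPKM of at least 1 in each. FPKM served only as an alternative and as a level per length. The annotation release and strand setting are not given. Reads with more than 1 alignment made up 10.4% to 10.7% of all reads and were left out of gene counts, ambiguous reads 4.73% to 4.91%. All 6 entries naming no gene were left out.

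Symbols, exons and coordinates (GRCm38) came from GENCODE M21, which held 55480 of 55573 identifiers. Counts were tested with edgeR 4.0.16 (R 4.3.3; TMM scaling, default filter, quasi-likelihood test in its edgeR 4 form, group as the only term, Benjamini-Hochberg adjustment over all tested genes). SE is the size of the log2 fold change over the root of its F statistic. The test borrows spread across genes (median prior degrees of freedom 49.97), so the p-value of a gene rests on more than its own values. The same steps were tested on simulated data with known changes. Replicates differed by more than counting noise (chi-square per gene 3.95 and 3.17) and were kept apart. The enzyme genes and lists were chosen with earlier results of these data known. Named genes are the 8 enzyme genes, called genes of the 4 pathway lists, Gli1 and the 5 nearest profiles to Asns. In each list the gene of highest mean CPM among those not called was named too. Any other gene in the text was picked with its value in view. Other choices tried were different scalings, filters, tools (DESeq2 1.42.0, limma 3.58.1), units, thresholds, a replicate block and leaving out each library.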

Additional observations from a re-analysis of the deposited data

How the results depend on the processing

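Of 16 settings tried, 15 gave the same count of 6 lower and 0 higher among the 8 enzyme genes, and the 2-fold threshold gave 5, without Aldh18a1. No log2 fold change of the 8 changed sign. The replicate block, which cannot be shown to pair these libraries (correlation of replicate differences between the groups 0.0351 over all tested genes and 0.214 over the 10803 that averaged 5 CPM or more), also gave 6. It took Got2 to an edgeR adjusted p of 0.00449 at a log2 fold change of -0.14, under the fold threshold. The block moved the call of no enzyme gene. Among the 43 other pathway genes, 4 calls became 17 with adjusted p alone and 0 with the 2-fold threshold, and leaving out 1 library gave 2 to 6. On log2(FPKM + 1) Gpt had a log2 fold change of 0.53 and was not called. Over all genes 1939 calls became 1157 without a filter, 1165 with the filter at 5 CPM, 840 on log2(FPKM + 1), 1258 on log2(FPKM + 0.1), 5587 with adjusted p alone and 960 with the 2-fold threshold. Leaving out 1 library gave 851 to 1826 calls, with 1008 without DMSO replicate 1 and 851 without DMSO replicate 2. Such a fit takes its spread mostly from the other group, since the lone library is assumed to vary like it; the cause of these moves was not tested. The share of higher calls among all calls was 69.3%, and 58.8% without DMSO replicate 2. The older form of the test, with dispersions estimated first, was added after seeing the data and gave 1921 calls, 6 of them enzyme genes. At 157 to 214 reads, depth limits Cbs most.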

Other observations

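The 2 scales per length order the enzyme genes differently. In the deposited FPKM Got2 stood second in both groups, at 64.7 ± 2.82 in DMSO and 58.5 ± 0.0472 in GDC0449, after Asns. In CPM per kilobase of annotated exon it stood sixth in DMSO and second in GDC0449. In DMSO Aldh18a1 stood sixth in FPKM, at 42.6 ± 2.24, and at place 4 in CPM per kilobase (SD, n = 2). Asns was first, Cth seventh and Cbs last on both scales and in both groups.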
